A study of Homo sapiens with 4 samples.

Results

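Natriuretic peptides and nitric oxide act on cells through cyclic GMP, and 8 genes of this signalling route were followed here in DAOY cells, a human medulloblastoma line, among the 20363 genes of the count table. They were NPPB, NPR1, NPR2, NPR3, GUCY1A2, PRKG1, PRKG2 and PDE5A. NPR3 and GUCY1A2 were picked for their changes in these libraries, so their values are given below as a description only. The larger change was with SAG for NPR3 and with ZNF521 for GUCY1A2. The other 6 genes were taken because they act in the same pathway, also with earlier results of these data known. Of the 8 genes, 6 had at least 10 counts in at least 2 libraries and were tested among 14970 genes, whereas NPPB and PRKG2 were under that level.

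The study asked how ZNF521, a zinc-finger transcription cofactor, and the Sonic Hedgehog (SHH) pathway act on the transcriptome of medulloblastoma cells. ZNF521_SAG and ZNF521_DMSO were DAOY cells made to overexpress ZNF521 and treated with SAG, an agonist of the SHH receptor component SMO, or with its solvent DMSO. CTL_SAG and CTL_DMSO were control DAOY cells with the same treatments. The study's vector expresses its transgene together with EGFP, and the control cells are called wild type in the record but empty-vector cells in the methods. All cells are of 1 tumour line, 1 library was sequenced per condition, and the SAG dose of the sequenced cells is not given in the sources used here.

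Cyclic GMP is made by particulate and soluble guanylate cyclases. The particulate kind are receptors on the cell surface, NPR1 for the atrial and B-type natriuretic peptides and NPR2 for the C-type peptide, whose cytoplasmic part is the enzyme. The soluble kind is a pair of an alpha and a beta subunit with a haem group that binds nitric oxide. NPR3 binds the same peptides but has no cyclase, and is known mainly for taking them up and clearing them. The cyclic GMP formed activates the protein kinases encoded by PRKG1 and PRKG2, opens or modulates some ion channels, and is broken down by phosphodiesterases such as PDE5A, the target of sildenafil. The pathway is best known for relaxing vascular smooth muscle and, through NPR2 and PRKG2, for bone growth.

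The library totals were 16314685 counts for ZNF521_SAG, 13366535 for ZNF521_DMSO, 12294833 for CTL_SAG and 13468912 for CTL_DMSO. ZNF521 mRNA was at 2072 and 2013 normalized counts in ZNF521 cells, against 751.1 and 713.7 in CTL cells, with SAG given first in each pair. GLI1, a target gene of the SHH pathway, had a log2 fold change of 2.44 with SAG (SE 0.222, adjusted p = 0.00054 from edgeR). CTL_DMSO stood apart from the other libraries: the SD of its log2 deviations from the gene means was 0.273 over 9161 well-expressed genes, against 0.126 to 0.142 in the others. It also had the highest summed level of 5 fibroblast markers, 28478 normalized counts, against 13011 to 13635 in the other 3 libraries. Of 8 markers of medulloblastoma and the granule cell lineage, ATOH1 and BARHL1 had under 10 counts in every library, whereas ZIC1 had 240.8 to 303.4 normalized counts, and the sum of all 8 ran from 923.0 to 1121. Summed levels ran from 1713 to 1964 for 5 smooth muscle markers, from 135.8 to 179.3 for 4 endothelial markers and from 29.8 to 46.2 for 2 astrocyte markers, while the immune marker PTPRC was at 0.844 to 4.02.

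The 250 bases before 1 transcription start of each of the 3 genes whose counts set the conditions apart most are printed here. The printed windows differ widely in base composition. The sequences are from RefSeq on GRCh38.p14, read 5′ to 3′ on the strand of the gene and ending at the base before the start. Capitals mark CG dinucleotides, the sites of DNA methylation. No base of these windows lies in an annotated exon.
NPR3 (chr5:32690622-32690871, plus strand): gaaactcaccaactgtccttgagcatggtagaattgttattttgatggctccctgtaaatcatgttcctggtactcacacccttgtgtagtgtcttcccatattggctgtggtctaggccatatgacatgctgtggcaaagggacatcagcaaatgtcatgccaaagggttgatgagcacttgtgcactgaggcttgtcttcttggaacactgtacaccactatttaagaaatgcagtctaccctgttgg
GUCY1A2 (chr11:107018477-107018726, minus strand): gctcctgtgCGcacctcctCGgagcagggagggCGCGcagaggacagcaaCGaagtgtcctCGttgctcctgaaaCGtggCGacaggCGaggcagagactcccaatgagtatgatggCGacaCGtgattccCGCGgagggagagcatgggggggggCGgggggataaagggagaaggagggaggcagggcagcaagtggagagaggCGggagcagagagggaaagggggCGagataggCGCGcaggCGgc
PDE5A (chr4:119628805-119629054, minus strand): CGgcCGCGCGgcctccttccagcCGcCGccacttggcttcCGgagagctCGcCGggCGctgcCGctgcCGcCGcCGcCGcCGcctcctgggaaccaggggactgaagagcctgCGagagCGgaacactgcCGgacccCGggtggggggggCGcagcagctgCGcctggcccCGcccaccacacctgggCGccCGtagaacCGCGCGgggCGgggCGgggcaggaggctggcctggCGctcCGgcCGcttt
The NPR3 window holds 0 CG dinucleotides at a GC content of 45.6%, the GUCY1A2 window 19 at 66.0% and the PDE5A window 33 at 78.8%. The median of 35116 RefSeq promoters was 11 CG dinucleotides and 58% GC. NPR3 has another RefSeq start further downstream whose window holds 16 CG dinucleotides at 64% GC. PDE5A has other RefSeq starts, whose windows hold 10 CG dinucleotides at 60.8% GC and 20 at 68.4% GC. Over all their starts NPR3 and PDE5A overlap, so the contrast above depends on the start printed. The counts per gene do not tell the starts apart. The 9-letter GLI consensus GACCACCCA was searched on both strands of 11 such windows of 250 bases for 7 of the 8 genes, NPPB having none in the table. It was found in 0 of the 11 windows, also when 1 mismatch was allowed. Of all promoters, 0.199% held the exact letters and 5.81% held them with up to 1 mismatch. A result of 0 in 11 windows is close to these shares, so nothing is read from it. The paper places the GLI site of the PTCH1 promoter further upstream than these windows reach, and sites outside the windows were not searched.

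The levels of the genes were compared per kb of exon, as normalized counts divided by the merged exon length. PDE5A stood highest at a mean of 109.9 normalized counts per kb, at the 65.0th percentile of 14601 genes. NPR3 followed at 32.4, GUCY1A2 at 21.8, PRKG1 at 16.3 and NPR2 at 16.2 normalized counts per kb. The lowest library of PDE5A, at 71.5, was above the highest of NPR3, at 49.3. The ranges of NPR3, GUCY1A2, PRKG1 and NPR2 overlapped, since they ran from 16.7 to 49.3, from 13.8 to 29.2, from 11.8 to 18.3 and from 11.7 to 23.2 normalized counts per kb. Their order is therefore not set by these libraries, and with the length of the longest transcript GUCY1A2 came to rank 5, after PRKG1 and NPR2. NPR1 had a mean of 3.35 normalized counts per kb, NPPB 2.28 and PRKG2 0.647, and each of their libraries was below the lowest of the other 5 genes.

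**Figure D1:**
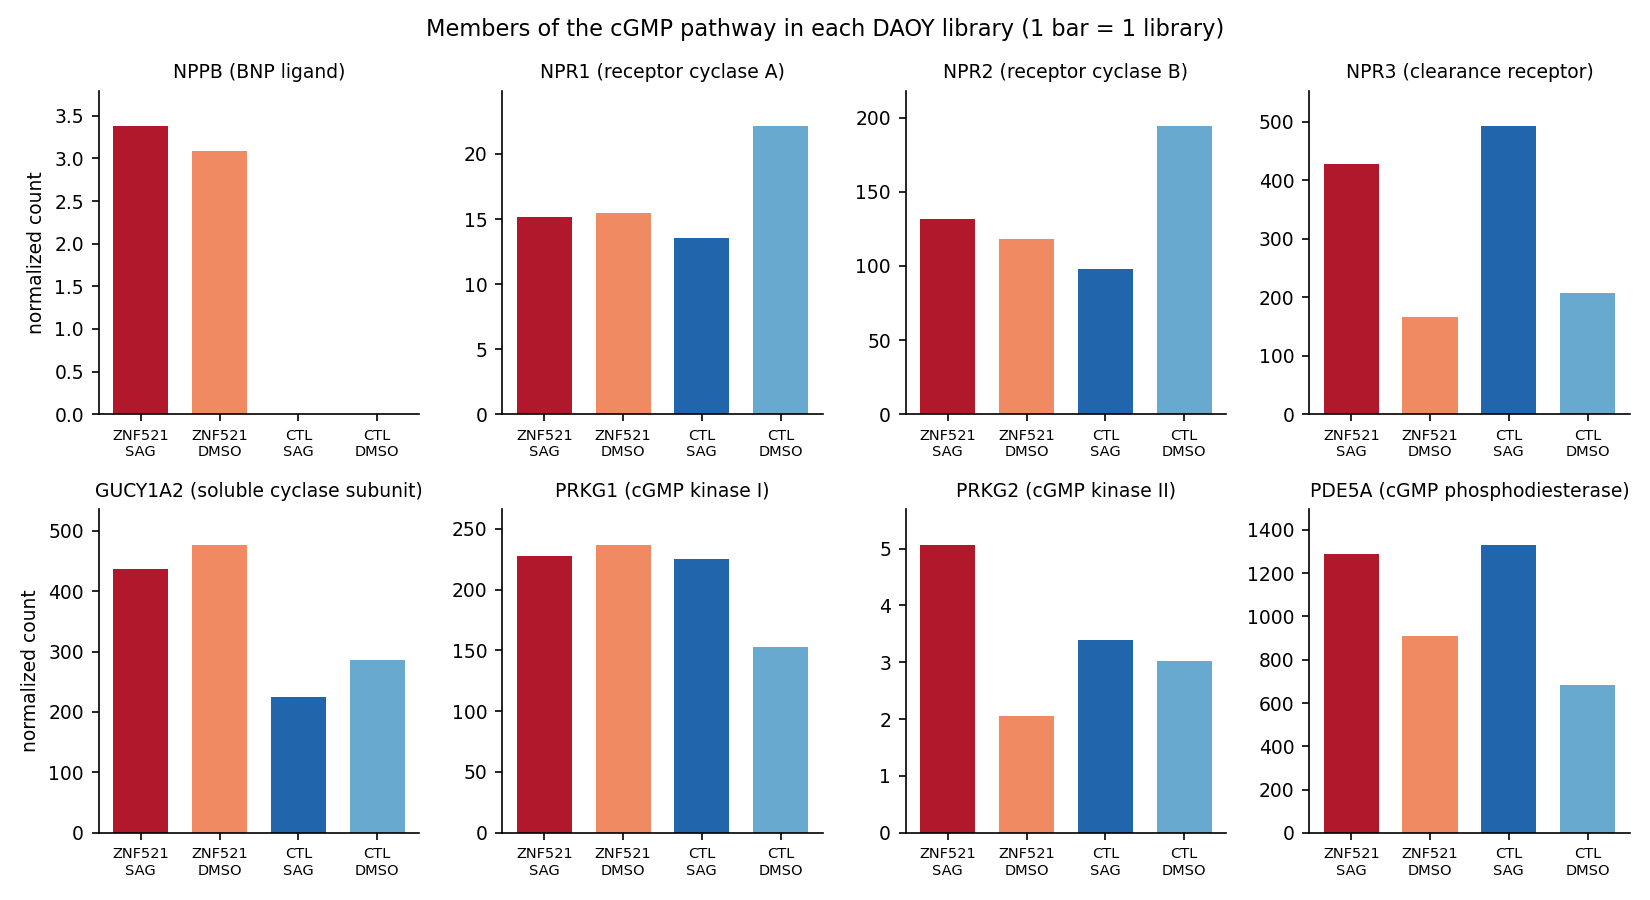
Normalized counts of the 8 genes in the 4 DAOY libraries, 1 bar per library, with a separate linear axis from 0 for each gene. NPR3 and PDE5A were higher in both SAG libraries than in both DMSO libraries, GUCY1A2 was higher in both ZNF521 libraries than in both CTL libraries, and NPPB and PRKG2 had at most 6 counts in any library.

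NPPB encodes the B-type natriuretic peptide, a ligand of NPR1 that the heart secretes. Its hg38 locus is chromosome 1, 11857464 to 11858945, minus strand. NPPB had 4 counts in ZNF521_SAG and 3 in ZNF521_DMSO, against 0 in CTL_SAG and 0 in CTL_DMSO. The groups did not overlap, but the libraries with a count of 0 allow up to 3.38 and 3.02 normalized counts, close to the 3.37 and 3.09 seen in the ZNF521 libraries. The exact 95% interval of the ratio of ZNF521 to CTL cells began at 0.494 with SAG and at 0.423 with DMSO. A difference in NPPB was thus not detectable at this depth within either pair taken alone, and the pairs were not pooled. NPPA, the atrial peptide, had 1 to 5 counts per library, and NPPC, the C-type peptide and ligand of NPR2, had 6 to 11.

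NPR1, the receptor cyclase for the atrial and B-type peptides, was low in all libraries. Its hg38 locus is chromosome 1, 153678688 to 153693992, plus strand. NPR1 had 18 counts in ZNF521_SAG and 12 in CTL_SAG, against 15 in ZNF521_DMSO and 22 in CTL_DMSO. These are 15.2 and 13.5 normalized counts with SAG, against 15.4 and 22.1 with DMSO. CTL_DMSO was the highest library, and both SAG libraries were just below both DMSO libraries. The fit gave a log2 fold change of -0.36 (SE 0.421, adjusted p = 0.761 from edgeR) for SAG and -0.21 (SE 0.421, adjusted p = 0.989) for ZNF521, neither of which was larger than its error, and the ZNF521 value was 0.18 with CTL_DMSO left out.

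NPR2, the receptor cyclase for the C-type peptide, was the particulate cyclase with the larger count. The gene spans 35791003 to 35809732 on chromosome 9 (hg38, plus strand) and shares 329 exon bases with SPAG8 on the other strand, which had 11 to 20 counts. NPR2 had 131.6 normalized counts in ZNF521_SAG and 98.1 in CTL_SAG, against 118.3 in ZNF521_DMSO and 194.0 in CTL_DMSO. CTL_DMSO was high, the other 3 libraries lay between 98.1 and 131.6, and the SAG and DMSO libraries overlapped. The SAG to DMSO ratio was 1.11 in ZNF521 cells (95% counting interval 0.869 to 1.43) and 0.506 in CTL cells (0.388 to 0.655). In the fit, the log2 fold change was -0.41 for SAG (SE 0.255, adjusted p = 0.532 from edgeR) and -0.18 for ZNF521 (SE 0.255, adjusted p = 0.988). With the factor fitted alone and CTL_DMSO left out it was -0.03 for SAG and 0.36 for ZNF521, and it passed the threshold for SAG without ZNF521_DMSO (-0.75, adjusted p = 0.0103 from edgeR) and for ZNF521 without CTL_SAG (-0.65, adjusted p = 0.0156), settings in which 30.5% and 15.8% of all genes passed. Of the 5 fibroblast markers, COL1A1, COL1A2, PDGFRB and DCN were also highest in CTL_DMSO, whereas THY1 was at 2730 normalized counts there and at 2497 to 2840 in the other libraries. COL1A1 and COL1A2 made up most of the sum given above, and the part of these markers in the NPR2 values was not tested.

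NPR3, the clearance receptor, carried the largest SAG value of the 6 tested genes, and it was picked for its changes in these libraries. Its hg38 locus is chromosome 5, 32689070 to 32791724, plus strand. NPR3 had 427.7 normalized counts in ZNF521_SAG and 491.7 in CTL_SAG, against 166.7 in ZNF521_DMSO and 207.1 in CTL_DMSO. Both SAG libraries were above both DMSO libraries, with no overlap. The ratio was 2.57 in ZNF521 cells (95% counting interval 2.15 to 3.08) and 2.37 in CTL cells (2.01 to 2.82), and the fitted value was 2.47-fold, a log2 fold change of 1.30 (SE 0.168). In bulk RNA, more cells with a transcript and more of it per cell cannot be told apart.

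NPR3 was slightly lower in ZNF521 cells. Since it was picked for its changes in these same libraries, these values are also a description only. NPR3 had 427.7 normalized counts in ZNF521_SAG against 491.7 in CTL_SAG, and 166.7 in ZNF521_DMSO against 207.1 in CTL_DMSO. The ZNF521 library was the lower of the pair under each treatment, while the cells' ranges overlapped across treatments. The ratio was 0.870 with SAG (95% counting interval 0.764 to 0.991) and 0.805 with DMSO (0.651 to 0.994). The fitted log2 fold change was -0.26 (SE 0.166, adjusted p = 0.962 from edgeR), which did not pass. With ZNF521 fitted alone, it was -0.70 without CTL_DMSO (adjusted p = 0.0385 from edgeR) and 0.52 without CTL_SAG (adjusted p = 0.0455), where 0.191% and 15.8% of all genes passed, opposite directions that each compare unequal shares of SAG libraries. The log2 SAG effect was 1.36 in ZNF521 cells and 1.25 in CTL cells, a difference of 0.11 with a counting SE of 0.178, so no difference between the cells was detectable beyond counting error.

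GUCY1A2 encodes the alpha-2 subunit of soluble guanylate cyclase, the nitric oxide sensor, and was picked for its changes in these libraries. Its hg38 locus is chromosome 11, 106674019 to 107018476, minus strand. GUCY1A2 had 437.0 normalized counts in ZNF521_SAG and 476.4 in ZNF521_DMSO, against 225.5 in CTL_SAG and 285.5 in CTL_DMSO. Both ZNF521 libraries were above both CTL libraries, with no overlap. The ratio was 1.94 with SAG (95% counting interval 1.64 to 2.29) and 1.67 with DMSO (1.44 to 1.94), and the fitted value was 1.78-fold, a log2 fold change of 0.83 (SE 0.167).

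GUCY1A2 was picked for its changes, so its values with SAG are also a description only. It had 437.0 normalized counts in ZNF521_SAG against 476.4 in ZNF521_DMSO, and 225.5 in CTL_SAG against 285.5 in CTL_DMSO. The SAG library was the lower of both pairs, by a ratio of 0.917 in ZNF521 cells (95% counting interval 0.808 to 1.04) and 0.790 in CTL cells (0.656 to 0.950). The fitted log2 fold change was -0.23 (SE 0.166, adjusted p = 0.602 from edgeR), which did not pass, and it turned to 0.20 without CTL_SAG and 0.23 without ZNF521_DMSO when treatment was fitted alone. The other subunits of soluble guanylate cyclase were not analysed here, apart from GUCY1B2, which had 2 to 4 counts.

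PRKG1 encodes the cyclic GMP-dependent protein kinase of smooth muscle, platelets and cerebellar Purkinje cells. The gene spans 50990888 to 52298423 on chromosome 10 (hg38, plus strand) and shares 282 exon bases with its antisense gene PRKG1-AS1, which had 1 to 6 counts. PRKG1 had 227.8 normalized counts in ZNF521_SAG and 225.5 in CTL_SAG, against 236.7 in ZNF521_DMSO and 152.8 in CTL_DMSO. CTL_DMSO was low, and the other 3 libraries lay between 225.5 and 236.7. The SAG to DMSO ratio was 0.963 in ZNF521 cells (95% counting interval 0.804 to 1.15) and 1.48 in CTL cells (1.19 to 1.83). The fit gave a log2 fold change of 0.24 for SAG (SE 0.193, adjusted p = 0.633 from edgeR) and 0.30 for ZNF521 (SE 0.193, adjusted p = 0.962), and, with the factor fitted alone, -0.07 for SAG and 0.05 for ZNF521 without CTL_DMSO. It passed the threshold for SAG without ZNF521_DMSO (0.56, adjusted p = 0.0172 from edgeR) and for ZNF521 without CTL_SAG (0.59, adjusted p = 0.03), the same settings that called 30.5% and 15.8% of all genes.

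PRKG2, the membrane-bound kinase of intestine and growth plate cartilage, was barely measured. Its hg38 locus is chromosome 4, 81087370 to 81215222, minus strand. PRKG2 had 6 counts in ZNF521_SAG and 3 in CTL_SAG, against 2 in ZNF521_DMSO and 3 in CTL_DMSO. The exact 95% interval of the SAG to DMSO ratio ran from 0.440 to 24.9 in ZNF521 cells and from 0.150 to 8.38 in CTL cells, so no difference was detectable at this depth.

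PDE5A, a phosphodiesterase that is specific for cyclic GMP, was the most abundant of the 8 genes and higher in both SAG libraries. The gene spans 119494397 to 119628804 on chromosome 4 (hg38, minus strand) and shares 883 exon bases with a long noncoding RNA on the other strand. PDE5A had 1290 normalized counts in ZNF521_SAG and 1331 in CTL_SAG, against 907.6 in ZNF521_DMSO and 685.5 in CTL_DMSO. The SAG and DMSO libraries did not overlap, and CTL_DMSO was the lowest library. The SAG to DMSO ratio was 1.42 in ZNF521 cells (95% counting interval 1.31 to 1.55) and 1.94 in CTL cells (1.76 to 2.14). The fitted log2 fold change was 0.73 (SE 0.161), a p of 0.000593 that ranked at 18 of 14970 genes, but the adjusted p was 0.391 from edgeR. PDE5A was past the threshold without the filter on low counts (adjusted p = 0.00589 from edgeR), and, with treatment fitted alone, without CTL_DMSO (log2 fold change 0.52, adjusted p = 0.0181) and without ZNF521_DMSO (0.92, adjusted p = 1.76e-05). These settings called 1.1%, 0.456% and 30.5% of all genes. Over all 12 alternatives its adjusted p ran from 1.76e-05 to 1.

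For ZNF521, PDE5A gave no common direction. It had 1290 normalized counts in ZNF521_SAG against 1331 in CTL_SAG, and 907.6 in ZNF521_DMSO against 685.5 in CTL_DMSO. The ratio was 0.969 with SAG (95% counting interval 0.898 to 1.05) and 1.32 with DMSO (1.20 to 1.47). The fitted log2 fold change was 0.16 (SE 0.160, adjusted p = 0.987 from edgeR). With ZNF521 fitted alone it was -0.27 without CTL_DMSO, -0.17 without ZNF521_SAG and 0.67 without CTL_SAG (adjusted p = 0.00122 from edgeR), where 15.8% of all genes passed.

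**Figure D2:**
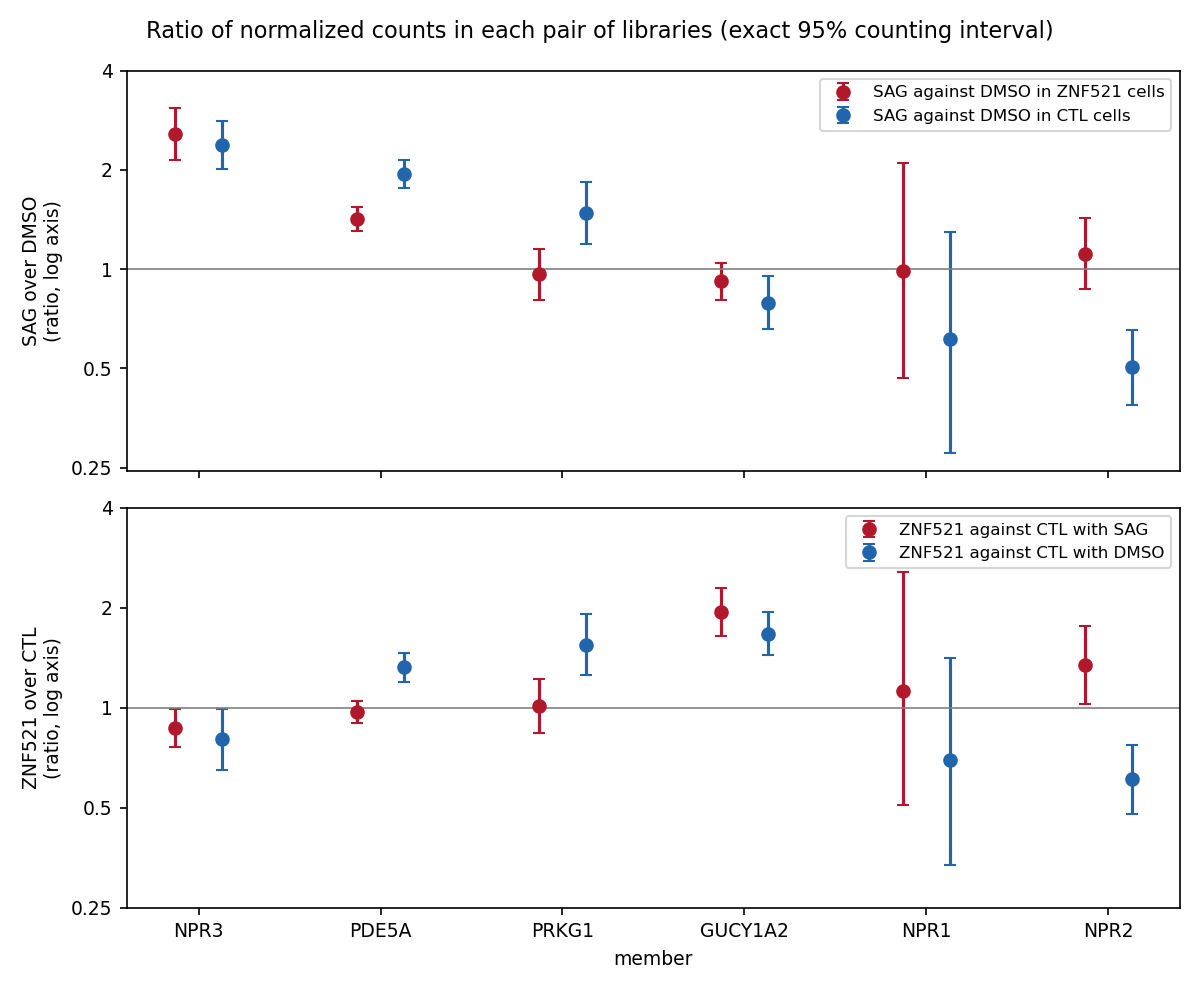
Ratio of normalized counts in each pair of libraries on a log axis, for the 6 tested genes, with exact 95% intervals that cover counting error only. The upper panel gives SAG over DMSO in ZNF521 cells (red) and CTL cells (blue), and the lower panel ZNF521 over CTL with SAG (red) and with DMSO (blue). Both intervals of NPR3 and PDE5A in the upper panel and of GUCY1A2 in the lower panel lie above 1, while those of NPR2 and PRKG1 depend on the pair.

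Across the comparison of SAG with DMSO, 1 of the 6 tested genes, NPR3, was past an adjusted p of 0.05 in edgeR's quasi-likelihood test, as were 0.0401% of all 14970 genes, all of them higher with SAG. By the threshold of the study, an unadjusted p of at most 0.05, there were 2, NPR3 and PDE5A, both higher, beside 11.3% of all genes in either direction and 6.21% higher. NPR3 was picked for its changes in these libraries, so nothing is read from the first count. The second count adds PDE5A, 1 of the other 5 tested genes. These genes were also chosen with earlier results of these data known, so that count is a description only. The median log2 fold change of the 6 genes was 0.01, and of all tested genes 0.00055. The SAG call of NPR3 was lost with treatment fitted alone and either CTL_SAG left out (adjusted p = 0.999 from edgeR) or ZNF521_SAG left out (adjusted p = 0.907), while its log2 fold change was 1.19 and 1.39.

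Across the comparison of ZNF521 with CTL cells, 0 of the 6 tested genes were past an adjusted p of 0.05 in edgeR, and 0 with DESeq2 or with limma. Of all genes 0.00668% were, which is ZNF521 itself, higher in ZNF521 cells. At an unadjusted p of at most 0.05 there was 1, GUCY1A2, beside 5.48% of all genes in either direction and 2.36% higher, and since it was picked on this contrast nothing is read from that count. The median log2 fold change of the 6 genes was -0.01, and of all tested genes -0.0034. With ZNF521 fitted alone, the log2 fold change of GUCY1A2 was 1.02 without CTL_DMSO and 0.66 without CTL_SAG. NPR3 and GUCY1A2 were picked for their changes in these libraries, so nothing is read from how many genes passed in those fits. The comparisons of SAG and of ZNF521 use the same 4 libraries and are not independent of each other.

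**Figure D3:**
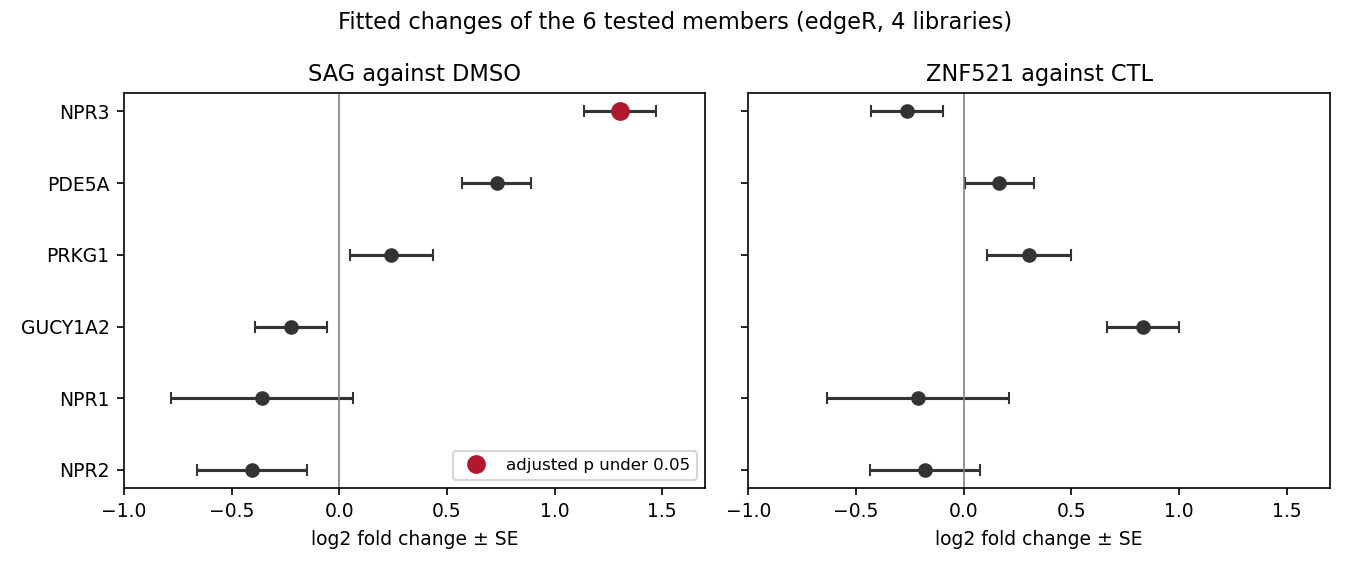
Fitted log2 fold changes with their SE for the 6 tested genes, SAG against DMSO on the left and ZNF521 against CTL on the right, from the edgeR fit of all 4 libraries. NPR3 at 1.30 with SAG is the 1 point past an adjusted p of 0.05 (red), PDE5A follows at 0.73, and GUCY1A2 stands highest for ZNF521 at 0.83.

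Other genes of the pathway were taken from a list of 62, of which 55 were in the table and 34 were tested. In edgeR, 0 of the 34 were past the adjusted threshold in either comparison, and 0 were with DESeq2 or limma. With SAG, 7 reached an unadjusted p of at most 0.05, 4 of them higher and 3 lower, beside 11.3% of all genes and 6.21% higher, and 18 of the 34 had a positive and 16 a negative log2 fold change, with a median of 0.02. With ZNF521, 1 was higher and 3 were lower at that p, beside 5.48% of all genes and 2.36% higher, 17 were positive and 17 negative, and the median was 0.00301. Of all 14970 genes, 7497 were positive and 7473 negative with SAG, and 7393 and 7577 with ZNF521. With 1 factor fitted alone, 13 of 33 were past the adjusted threshold for SAG without ZNF521_DMSO, where 30.5% of all genes were, and 8 of 34 for ZNF521 without CTL_SAG, where 15.8% of all genes were. Another 18 genes of the list had fewer than 10 counts in every library, among them GUCY2C, GUCY2D and GUCY2F, the particulate cyclases of gut and retina, and 6 subunits of cyclic nucleotide-gated channels.

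Of 4 tested genes for peptides and their processing, the one of smallest p with SAG was IDE, the insulin-degrading enzyme, which also cleaves natriuretic peptides. IDE had 1440 normalized counts in ZNF521_SAG and 1587 in CTL_SAG, against 1289 in ZNF521_DMSO and 986.1 in CTL_DMSO. Both SAG libraries were higher, with a log2 fold change of 0.42 (SE 0.162, adjusted p = 0.397 from edgeR). Of 3 nitric oxide synthases, whose product activates soluble guanylate cyclase, NOS3 was the one at an unadjusted p of at most 0.05, beside 11.3% of all genes. NOS3 is named after its values were seen, and had 12.7 normalized counts in ZNF521_SAG and 14.7 in CTL_SAG, against 22.6 in ZNF521_DMSO and 32.2 in CTL_DMSO (log2 fold change -0.98, SE 0.386, adjusted p = 0.397).

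Of the 11 other phosphodiesterase genes tested, 0 had an unadjusted p of at most 0.05 in either comparison. Of all genes, 11.3% did with SAG and 5.48% with ZNF521. With SAG 5 of the 11 were positive and 6 negative, beside 7497 positive and 7473 negative of all 14970 genes. Their median log2 fold change was -0.08, beside 0.73 for PDE5A. Per kb of exon, the mean level of PDE5A, 109.9 normalized counts per kb, was above that of each of the 11 except PDE6D, at 205.4, which encodes a chaperone of lipid-bound proteins rather than an enzyme. PDE1C, a calmodulin-activated enzyme, came next at 33.4, and its libraries ran from 28.6 to 36.2 normalized counts per kb, below every library of PDE5A. These names were chosen after the levels were seen.

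Of 11 tested substrates and targets of the cyclic GMP kinases, 3 were higher with SAG and 0 lower by the unadjusted threshold of 0.05, by which 6.21% of all genes were higher. RGS4, a regulator of G protein signalling, had 534.9 normalized counts in ZNF521_SAG and 541.3 in CTL_SAG, against 444.5 in ZNF521_DMSO and 301.6 in CTL_DMSO (log2 fold change 0.55, SE 0.177, adjusted p = 0.391 from edgeR). PPP1R12A, the targeting subunit of myosin phosphatase, had a log2 fold change of 0.36 (SE 0.156), and CREB1, a transcription factor, 0.35 (SE 0.156). All 3 had their lowest value in CTL_DMSO.

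With ZNF521, RGS2, a regulator of G protein signalling that the kinase of PRKG1 phosphorylates in smooth muscle, had the smallest p of these 11. It had 542.5 normalized counts in ZNF521_SAG and 531.0 in ZNF521_DMSO, against 399.2 in CTL_SAG and 307.6 in CTL_DMSO. The cells did not overlap, and the log2 fold change was 0.60 (SE 0.165, adjusted p = 0.679 from edgeR). KCNMA1, the calcium-activated potassium channel that the kinase opens in smooth muscle, had 847.9 normalized counts in ZNF521_SAG and 660.6 in ZNF521_DMSO, against 940.5 in CTL_SAG and 1249 in CTL_DMSO. Both ZNF521 libraries were lower, with a log2 fold change of -0.54 (SE 0.188, adjusted p = 0.888).

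Of 5 tested channels and exporters, 4 had a negative log2 fold change with SAG, beside 7473 of all 14970 genes. The smallest p-values, both under the unadjusted threshold of 0.05, were those of HCN2, a pacemaker channel whose opening cyclic nucleotides shift, and of HCN3, a related channel. By that threshold 767 of all 14970 genes were lower with SAG. HCN3 had 59.1 normalized counts in ZNF521_SAG and 65.4 in CTL_SAG, against 105.0 in ZNF521_DMSO and 105.5 in CTL_DMSO (log2 fold change -0.76, SE 0.227, adjusted p = 0.391 from edgeR). HCN2 had 47.2 normalized counts in ZNF521_SAG and 51.9 in CTL_SAG, against 59.7 in ZNF521_DMSO and 119.6 in CTL_DMSO (log2 fold change -0.79, SE 0.272, adjusted p = 0.391). The HCN3 libraries lay close together within each treatment, whereas HCN2 was high in CTL_DMSO. HCN4, another pacemaker channel, was at -0.75 with SAG (SE 0.407, adjusted p = 0.483). With ZNF521, HCN2 had a log2 fold change of -0.62 (SE 0.272, adjusted p = 0.907), and HCN4, named after its values were seen, -0.99 (SE 0.407, adjusted p = 0.907). HCN4 had 10.1 normalized counts in ZNF521_SAG and 14.4 in ZNF521_DMSO, against 16.9 in CTL_SAG and 32.2 in CTL_DMSO.

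**Figure D4:**
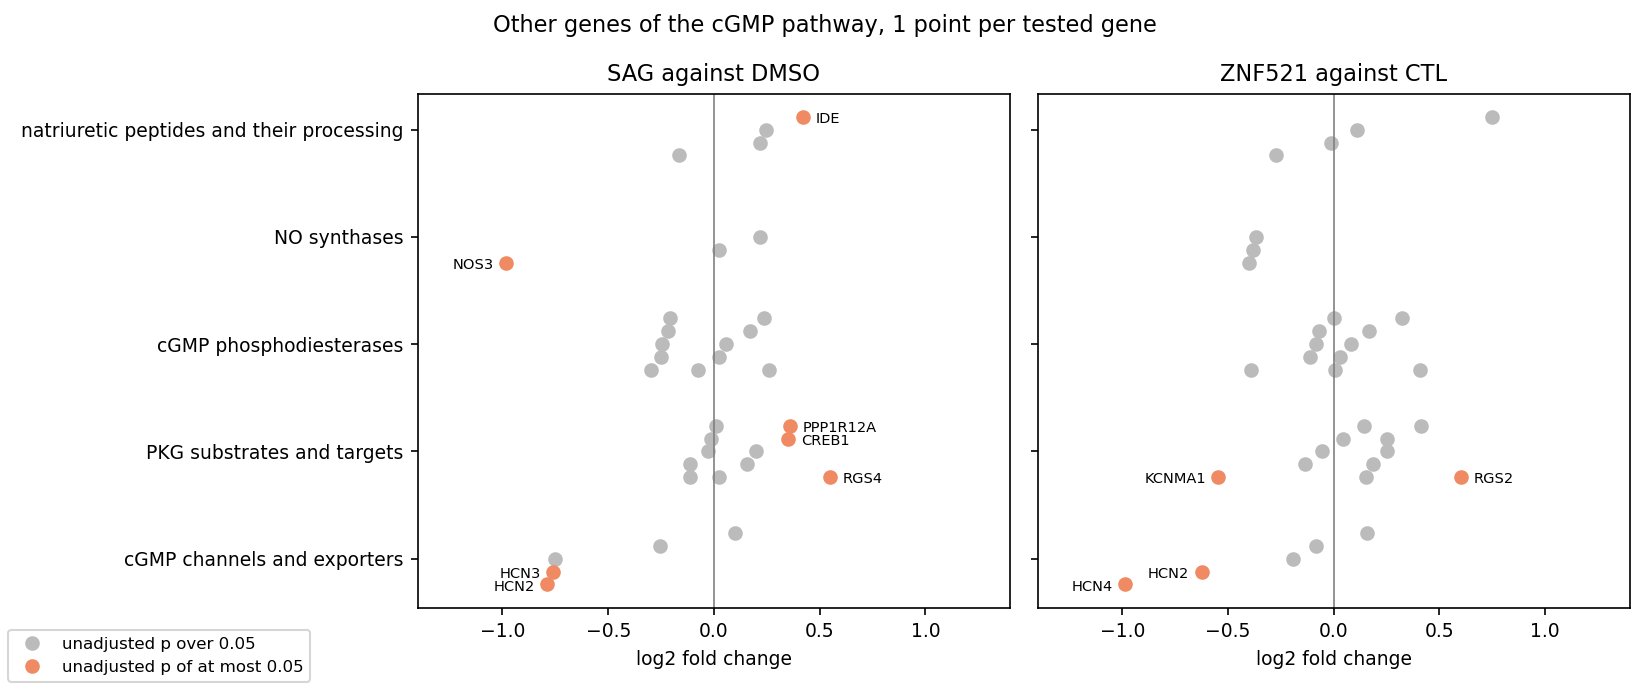
Log2 fold changes of the 34 other tested genes of the pathway by role, 1 point per gene, for SAG against DMSO on the left and ZNF521 against CTL on the right, with vertical offsets that carry no value. Orange points have an unadjusted p of at most 0.05, 7 with SAG and 4 with ZNF521, and 0 of them passed the adjusted threshold.

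The genes whose pattern over the 4 libraries was most like that of NPR3, GUCY1A2 and PDE5A were found among 12094 genes by the Euclidean distance between centred log2 profiles. For NPR3 they were LIPG, the endothelial lipase, at a distance of 0.347, SCN9A, a voltage-gated sodium channel, at 0.378, and ITIH5, a secreted protein of the hyaluronan matrix, at 0.388. LIPG had 3613 normalized counts in ZNF521_SAG and 4061 in CTL_SAG, against 1778 in ZNF521_DMSO and 2200 in CTL_DMSO. For GUCY1A2 they were PDE7B, a phosphodiesterase of cyclic AMP, at 0.0437, CD40, a receptor of the tumour necrosis factor family, at 0.0480, and SLC12A8, a transporter, at 0.193. PDE7B had 62.4 normalized counts in ZNF521_SAG and 70.0 in ZNF521_DMSO, against 32.7 in CTL_SAG and 40.2 in CTL_DMSO. For PDE5A they were CD163L1, a scavenger receptor, at 0.0784, OSGIN2 at 0.0960, and HIF1A, the oxygen-regulated transcription factor, at 0.0984. HIF1A had 3626 normalized counts in ZNF521_SAG and 3692 in CTL_SAG, against 2742 in ZNF521_DMSO and 2015 in CTL_DMSO. Each profile has 4 points that share their libraries, so these distances are a description only.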

How the data were processed

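RNA of 4 DAOY samples was sequenced from strand-specific libraries. The authors used STAR 2.7.0e with hg38 for alignment and gene quantification, and deposited whole counts. The deposited normalized table holds signal values, counts that the authors divided by 1 DESeq2 size factor per library (0.887 to 1.19), and lacks 503 genes. The annotation and the strand setting of the counting are not given in the sources used here. Genes that reached 10 counts in 2 or more libraries were tested with edgeR 4.0.16 in R 4.3.3 (TMM, quasi-likelihood, additive terms for treatment and cells), with p-values adjusted by Benjamini-Hochberg at 0.05. The fit leaves 1 residual degree of freedom, the departure from additive effects, moderated across genes by a prior of 11.7. With 1 library per condition, the p-values hold no spread between replicates of a condition. A single pair has no test. Its ratio has an exact Clopper-Pearson 95% interval, which covers counting error only, as does the limit of 3 counts for a count of 0. With 2 libraries on each side, a lack of overlap is a weak description, and its share over all genes is not given here. Lengths and positions are from GENCODE on hg38.

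The 8 genes and all lists were chosen with earlier results of these data known. Of the list, genes were named by smallest unadjusted p (up to 6 per comparison, at most 0.05, mean normalized count of at least 50, same direction in both pairs), and so were the 3 nearest profiles, from log2 of the normalized count plus 1. Alternatives were RLE factors, library size alone, no filter, a minimum mean count of 50, limma 3.58.1 with a trend, DESeq2 1.42.0, limma on genes filtered by fold as in the study's paired test, each factor fitted alone, and each library left out. The tests were checked on simulated counts with additive effects and no library that stood apart. That check therefore does not cover a library such as CTL_DMSO.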

Additional observations from a re-analysis of the deposited data

Results flagged for a closer look

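For 4 genes the libraries of 1 comparison pointed opposite ways. The SAG effect did so between ZNF521 and CTL cells for NPR2, with log2 ratios of 0.15 in ZNF521 cells and -0.98 in CTL cells, and for PRKG1, with -0.06 in ZNF521 cells and 0.56 in CTL cells. The ZNF521 effect did so between treatments for NPR1, with log2 ratios of 0.17 with SAG and -0.52 with DMSO, for NPR2, with 0.42 with SAG and -0.71 with DMSO, and for PDE5A, with -0.04 with SAG and 0.40 with DMSO. The difference of the log2 SAG effect, ZNF521 cells minus CTL cells, was 0.6851 for NPR1 (counting SE 0.723), 1.137 for NPR2 (0.257), -0.617 for PRKG1 (0.202) and -0.4496 for PDE5A (0.0924), and for NPR1 it was smaller than its counting error. The difference was not tested, since with 1 library per condition it uses the only residual degree of freedom. CTL_DMSO, the library that stood apart, was the highest library for NPR1 and NPR2 and the lowest for PRKG1 and PDE5A, and its part in these differences was not tested.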

How the results depend on the processing

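Of 138 log2 fold changes computed for the tested genes under the alternatives, 113 kept their direction and their side of the threshold and 9 reversed. Of those that did not reverse, 4 lost and 12 gained a call. All 9 reversals came from leaving out a library, which also drops the block on the other factor. Genes past the adjusted threshold for SAG numbered 6, against 223 without the filter, 0 with limma on fold-filtered values, 0 with treatment fitted alone and 0 to 4513 with a library left out. For ZNF521 there was 1, against 100 without the filter, 0 with limma on fold-filtered values and 0 to 2340 with a library left out. Of the 6 tested genes the SAG count of 1 became 2 without the filter, where 1.1% of all genes passed. It was 0 with that limma test and 0 with treatment alone. The ZNF521 count of 0 became 1 without the filter, where 0.491% of all genes passed. NPR3 and GUCY1A2, picked for their changes, are among these calls, so nothing is read from the counts. NPR3 with SAG was at 1.304 (adjusted p = 0.814 from limma) in the fold-filtered test, 1.295 (adjusted p = 0.378 from edgeR) with treatment alone and 1.134 to 1.452 with a library left out. PDE5A with SAG was at 0.7265 without the filter and 0.5234 to 0.9233 with a library left out. GUCY1A2 with ZNF521 was at 0.8439 without the filter and 0.6595 to 1.021 with a library left out. The leave-out ranges that crossed 0 were -0.7546 to 0.2324 for GUCY1A2 and -0.06729 to 0.5588 for PRKG1 with SAG, and with ZNF521 -0.5443 to 0.1806 for NPR1, -0.6469 to 0.3572 for NPR2, -1.079 to 0.5237 for NPR3 and -0.2685 to 0.6673 for PDE5A. The additive terms are the pairing of this design, and fitting each factor alone is its removal. Among the levels, 13 of 16 ranks were kept, and with the longest transcript PRKG1 came to rank 3, NPR2 to rank 4 and GUCY1A2 to rank 5. The cause of these changes was not tested. Depth limits the values of NPR1, NPPB and PRKG2, which had at most 22 counts in any library.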
